A study of Bos indicus with 12 samples.

Results

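Core progesterone synthesis in the bovine corpus luteum (CL) was described through 10 genes chosen by symbol for their role in the pathway: SCARB1, STAR, STARD3, TSPO, CYP11A1, FDX1, FDXR, HSD3B1, POR and CYB5A. They are 10 of the 15178 genes in the table, and all 10 were among the 11907 genes that reached a value of 30 in any cow and were tested. RNA-seq was performed on the CL of 6 pregnant (P) and 6 non-pregnant (NP) cows on day 18, with 1 library per cow. All were non-lactating multiparous Bos indicus cows that went through a timed insemination protocol. The P cows had been inseminated and carried an embryo, seen when the uterus was flushed at slaughter. The methods also name expression of interferon-stimulated genes and serum progesterone where they describe how these cows were chosen. A functional CL was established from plasma progesterone, so the cows were not taken without regard to progesterone. The labels give the NP cows only as non-pregnant, and the methods describe a synchronized group left without insemination; ages were not given in the sources used here. Cows are called by their group and number.

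The CL secretes progesterone, the steroid that holds the uterus in a state fit for pregnancy. Luteal cells take cholesterol from lipoproteins and move it to the inner mitochondrial membrane, where the side chain is cleaved to give pregnenolone with electrons passed along a short chain of carriers. Pregnenolone is then oxidized to progesterone, and in cattle the gland goes on doing so when an embryo signals its presence before luteolysis.

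Values are normalized counts, which are reads counted per gene divided by a size factor of the library. The reads recovered from them ranged from 2038858 to 7534503 per P library and from 6148184 to 8253360 per NP library. These totals hold only reads assigned to genes in the table, and depth here means this total. The reads sequenced for each library were not given in the sources used here. P cows 01, 18 and 28 had the lowest totals of all 12 libraries (3152328, 2589954 and 2038858 reads), so depth and group moved together, and values without these 3 cows are given beside the genes described. P cow 01 stood apart in some follicle genes, with 610.8 normalized counts of AMH and 338.8 of CYP17A1. No other cow had over 37.01 of AMH or 14.24 of CYP17A1. HSD17B1 was also highest in P cow 01, at 522.8. In CYP19A1, another follicle marker, P cow 01 was the lowest P cow at 40.72, inside the NP range of 23.58 to 52.53. Member values without P cow 01 follow the test. The tissue label was checked against luteal genes. OXT averaged 14062 ± 6155 normalized counts (SD, n = 6) in P and 11524 ± 6834 (SD, n = 6) in NP. PTGFR averaged 1418 ± 615.8 (SD, n = 6) in P and 4819 ± 1818 (SD, n = 6) in NP, and was called lower in P. PRLR was lower than both, from 18.43 to 100.4 normalized counts in NP and from 47.05 to 123.4 in P. No gene in the table carried the symbol LHCGR. In bulk tissue, fewer cells of a type and less RNA per cell cannot be told apart.

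None of the 10 genes was called different between P and NP cows with limma, where a call asked for 0.58 or more on the log2 scale, up or down, with an adjusted p below 0.05. Of all genes tested 26.8% were called, with 12% called higher in P and 14.8% called lower in P. At an unadjusted p below 0.05 stood 3 members (STARD3, CYB5A and SCARB1), as did 5495 of the 11907 genes. With edgeR and TMM factors the count was also 0 in each direction, while DESeq2, limma-voom and edgeR with upper quartile factors each called SCARB1 lower in P. Leaving out the fold minimum, 2 of the 10 members (20%, STARD3 and CYB5A) had an adjusted p below 0.05, against 34.6% of all genes. For none of the 10 did the P and NP values lie apart without overlap, which 13.6% of all genes did. The log2 fold changes were positive for 6 members and negative for 4, with a median of 0.13 beside -0.01 over all genes tested; the sign of FDXR (0.01) turned to -0.03 with edgeR and TMM. Without P cow 01 no member was called, and the log2 fold changes were 0.42 for STARD3 (adjusted p = 0.0288 in limma), 0.57 for CYB5A (0.0250), -0.66 for SCARB1 (0.0971), 0.53 for HSD3B1 (0.136) and -0.40 for STAR (0.285).

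**Figure D1:**
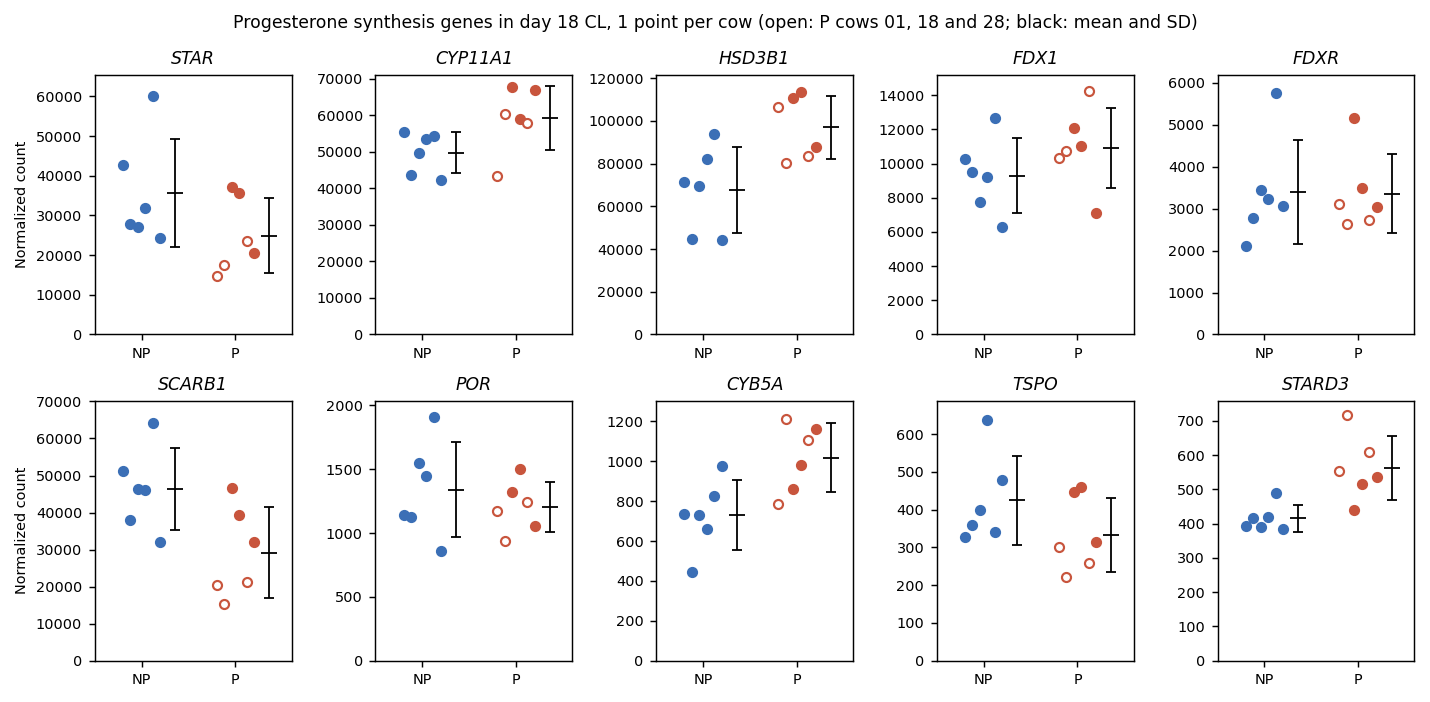
Normalized counts of the 10 genes in each of the 12 libraries, 1 panel per gene with its own linear axis from 0. Points are cows by group (P, NP) and lines give the group mean and SD (n = 6); every panel shows overlap between the groups, and SCARB1 and STAR have their lowest points among the P cows.

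**Figure D2:**
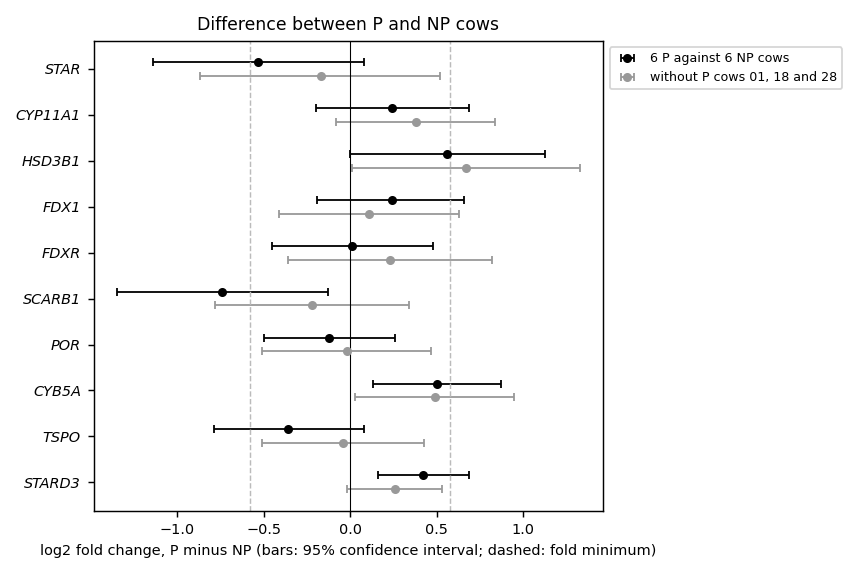
Log2 fold change (P minus NP) of each gene with its 95% confidence interval from limma, for all 12 cows and without P cows 01, 18 and 28. STARD3, CYB5A and SCARB1 have intervals that leave out 0 with all cows, and the SCARB1 estimate moves from -0.74 to -0.22 without the 3 P cows.

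Cholesterol enters the luteal cell in part through SCARB1, the receptor that takes up cholesteryl esters from high density lipoprotein. In NP cows SCARB1 ranged from 32094 to 64275 normalized counts with a median of 46275, and in P cows from 15256 to 46599 with a median of 26683. P cows 01, 18 and 28, at 20563, 15256 and 21242, lay below every NP cow. P cows 19, 27 and 29, at 46599, 39234 and 32125, lay within the NP range. The group means were 29170 ± 12201 (SD, n = 6) in P and 46361 ± 11110 (SD, n = 6) in NP. The fold of P over NP was 0.60 with a 95% confidence interval of 0.39 to 0.91, which is a log2 fold change of -0.74 ± 0.29 (SE) with an adjusted p of 0.0553 in limma. Without P cows 01, 18 and 28 the log2 fold change was -0.22 (95% confidence interval -0.78 to 0.34, adjusted p = 0.574 in limma). The 3 cows below every NP cow were the 3 with the fewest reads. With all libraries thinned to equal reads and scaled by library total, the log2 fold change was -0.76 and called (adjusted p = 0.042 in limma). Scaling by library total without thinning gave -0.77, also called (adjusted p = 0.0344 in limma). With the library total as a covariate the log2 fold change was -0.19 (adjusted p = 0.702 in limma).

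STAR moves cholesterol from the outer to the inner mitochondrial membrane, the acutely regulated step of steroid synthesis. STAR ranged from 24357 to 60095 normalized counts in NP cows with a median of 29872, and from 14806 to 37225 in P cows with a median of 21937. P cows 01, 18, 28 and 29 lay below every NP cow, and NP cows 05 and 32 lay above every P cow. The log2 fold change was -0.53 ± 0.29 (SE; 95% confidence interval -1.14 to 0.08; adjusted p = 0.156 in limma). Without P cows 01, 18 and 28 it was -0.17, with an interval of -0.87 to 0.52. Both intervals include 0.

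STARD3, a relative of STAR that sits in the membrane of late endosomes and binds cholesterol, showed the smallest p among the 10 genes. STARD3 ranged from 384.9 to 490.1 normalized counts in NP cows with a median of 405, and from 441.1 to 717.6 in P cows with a median of 545. All P cows but cow 19 lay above every NP cow, and NP cow 32 was the only NP cow above P cow 19. The fold of P over NP was 1.34 (95% confidence interval 1.11 to 1.61), a log2 fold change of 0.42 ± 0.13 (SE) with an adjusted p of 0.0181 in limma, under the fold minimum for a call. Libraries thinned to equal reads and scaled by library total gave 0.30 with an adjusted p of 0.144 in limma. Scaling by library total without thinning gave 0.39 with an adjusted p of 0.0294 in limma. Leaving out P cows 01, 18 and 28 gave 0.26 with an adjusted p of 0.173 in limma. With the library total as a covariate STARD3 was at 0.23 with an adjusted p of 0.305 in limma. Its read count was low, with 233 to 658 reads per library.

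TSPO is a cholesterol-binding protein of the outer mitochondrial membrane. TSPO ranged from 328.1 to 638.3 normalized counts in NP cows with a median of 379.4, and from 222.1 to 459.1 in P cows with a median of 307.6. P cows 01, 18, 28 and 29 lay below every NP cow, the same 4 cows as for STAR. The log2 fold change was -0.36 (95% confidence interval -0.79 to 0.08; adjusted p = 0.182 in limma), and -0.04 (-0.51 to 0.43) without P cows 01, 18 and 28. As few as 99 reads stood behind a value of TSPO.

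CYP11A1 is the mitochondrial P450 that cleaves the cholesterol side chain to give pregnenolone. CYP11A1 ranged from 42169 to 55333 normalized counts in NP cows with a median of 51571, and from 43260 to 67662 in P cows with a median of 59667. All P cows but cow 01 lay above every NP cow, and the group means were 59210 ± 8835 (SD, n = 6) in P and 49770 ± 5616 (SD, n = 6) in NP. The log2 fold change was 0.24 ± 0.21 (SE; 95% confidence interval -0.20 to 0.69; adjusted p = 0.374 in limma), and 0.38 (-0.08 to 0.84) without P cows 01, 18 and 28. Without P cow 01 alone it was 0.33 (adjusted p = 0.199 in limma).

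The electrons for CYP11A1 come from NADPH through FDXR, a flavoprotein reductase, and FDX1, a small iron-sulphur protein. FDX1 ranged from 6275 to 12684 normalized counts in NP cows with a median of 9383, and from 7122 to 14260 in P cows with a median of 10871. FDXR ranged from 2101 to 5760 in NP cows with a median of 3154, and from 2630 to 5166 in P cows with a median of 3073. Each group was spread over most of the other's range for both carriers. The log2 fold change of FDX1 was 0.24 (95% confidence interval -0.19 to 0.66; adjusted p = 0.363 in limma) and that of FDXR was 0.01 (-0.45 to 0.48; adjusted p = 0.967). They were 0.11 (-0.41 to 0.63) and 0.23 (-0.36 to 0.82) without P cows 01, 18 and 28. The interval of FDXR with all cows reaches from 0.73-fold to 1.39-fold, so folds inside it remain compatible with the values of these 12 cows.

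HSD3B1 oxidizes pregnenolone to progesterone in the last step of the pathway. HSD3B1 ranged from 44347 to 93652 normalized counts in NP cows with a median of 70453, and from 80129 to 113429 in P cows with a median of 97196. P cows 01, 19 and 27 lay above every NP cow, and all NP cows but 31 and 32 lay below every P cow. The fold of P over NP was 1.48 (95% confidence interval 1.00 to 2.19), a log2 fold change of 0.56 ± 0.27 (SE) with an adjusted p of 0.109 in limma. Without P cows 01, 18 and 28 the log2 fold change was 0.67 (0.01 to 1.33; adjusted p = 0.148 in limma), so that the estimate was no smaller without the low-depth cows. It was positive under every one of the 26 alternatives and called under none. With DESeq2 (0.53, adjusted p = 0.0205) and limma-voom (0.54, adjusted p = 0.0468) the adjusted p was below 0.05 and the size under the fold minimum.

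POR and CYB5A serve P450s of the endoplasmic reticulum, POR as the reductase that feeds them electrons and CYB5A as a haem protein that can aid them. POR ranged from 862.6 to 1910 normalized counts in NP cows with a median of 1293, and from 937.7 to 1499 in P cows with a median of 1206, so that the P cows lay inside the NP range. CYB5A ranged from 445.8 to 975.05 in NP cows with a median of 732.1, and from 785.1 to 1211 in P cows with a median of 1045. P cows 18, 27, 28 and 29 were above every NP cow in CYB5A, and NP cows 05, 22, 30 and 31 were below every P cow. The log2 fold change of POR was -0.12 (95% confidence interval -0.50 to 0.26; adjusted p = 0.606 in limma), and -0.02 (-0.51 to 0.47) without P cows 01, 18 and 28. That of CYB5A was 0.50 ± 0.17 (SE; 0.13 to 0.87), with an adjusted p of 0.0353 in limma and a size under the fold minimum. Without P cows 01, 18 and 28 CYB5A was at 0.49 with an adjusted p of 0.133 in limma. With the library total as a covariate CYB5A was at 0.37 (adjusted p = 0.299 in limma), and with 1 surrogate variable at 0.38 (adjusted p = 0.103 in limma). Without NP cow 42, the NP cow with the highest CYB5A, it was 0.59 with an adjusted p of 0.0187 in limma and passed the call.

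Together the 10 genes made up 4.22% ± 0.56 (SD, n = 6) of the normalized counts in P and 4.05% ± 0.82 (SD, n = 6) in NP, described with no test. P libraries ranged from 3.56% in cow 18 to 5.03% in cow 19, and NP libraries from 3.07% in cow 42 to 5.35% in cow 32. P cows 01, 18 and 28 averaged 3.79% and P cows 19, 27 and 29 averaged 4.64%. HSD3B1 had the most reads of any gene in all 6 P libraries and in all NP libraries but that of cow 42, where it ranked 3. CYP11A1 ranked 2 to 3 in P and 2 to 5 in NP, STAR 7 to 14 in P and 3 to 10 in NP, and SCARB1 5 to 17 in P and 2 to 5 in NP. These ranks and shares are of reads and were not corrected for transcript length.

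**Figure D3:**
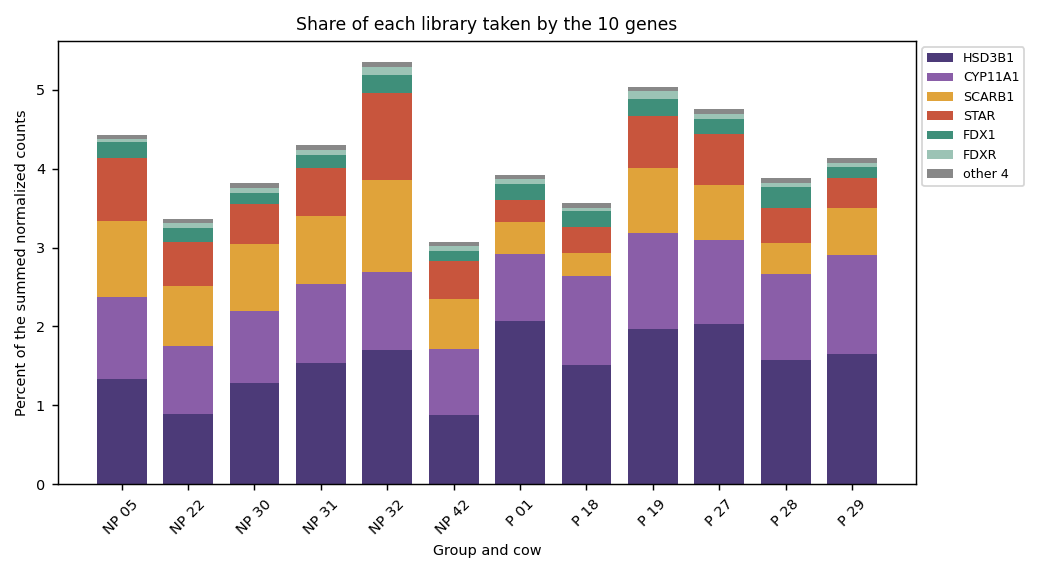
Percent of each library's summed normalized counts (y axis, from 0) taken by the 10 genes. Each bar is 1 cow and colours stand for genes, with POR, CYB5A, TSPO and STARD3 joined as the other 4; bar heights run from 3.07% (NP cow 42) to 5.35% (NP cow 32), and the P bars from 3.56% to 5.03% lie inside that span.

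Within the sum of the 10 genes, HSD3B1 took 42.9% ± 5.08 (SD, n = 6) in P and 31.1% ± 3.42 in NP, and SCARB1 took 12.4% ± 3.33 in P and 21.6% ± 0.955 in NP. For these 2 of the 10 genes the groups did not overlap: the HSD3B1 part was 39.2% to 52.9% in P and 26.4% to 35.9% in NP, and the SCARB1 part 8.04% to 16.5% in P and 20.1% to 22.5% in NP. STAR took 10.6% ± 2.44 in P and 16.3% ± 2.71 in NP, and CYP11A1 took 26.3% ± 4.38 in P and 23.7% ± 3.01 in NP. Of all genes tested, 7.39% did not overlap when their values were divided by the same sum. That is an unlike measure, since each member is part of the sum and the other genes are not. The parts sum to the whole, so a larger part of one gene is a smaller part of the rest.

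Ratios within a library do not depend on the size factor, and all 45 pairs of members were looked at after the values were seen, with no test. The ratios did not overlap between the groups in 4 of the 45 pairs (8.89%), against 12.6% of all pairs of the 11638 genes with a value above 0 in every library, so non-overlap was not more common among the members than among genes at large. The 4 pairs were HSD3B1 to STAR, HSD3B1 to SCARB1, HSD3B1 to POR and CYP11A1 to SCARB1. HSD3B1 to SCARB1 was 1.17 to 1.78 in NP cows and 2.38 to 5.25 in P cows, a mean log2 difference of 1.31, and 0.89 for P cows 19, 27 and 29 alone. HSD3B1 to STAR was 1.56 to 2.58 in NP cows and 2.98 to 7.19 in P cows, with a mean log2 difference of 1.10, and 0.84 for those 3 P cows. CYP11A1 to SCARB1 was 0.843 to 1.31 in NP and 1.45 to 3.96 in P, and HSD3B1 to POR was 39.6 to 62.5 in NP and 67.5 to 91.0 in P.

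**Figure D4:**
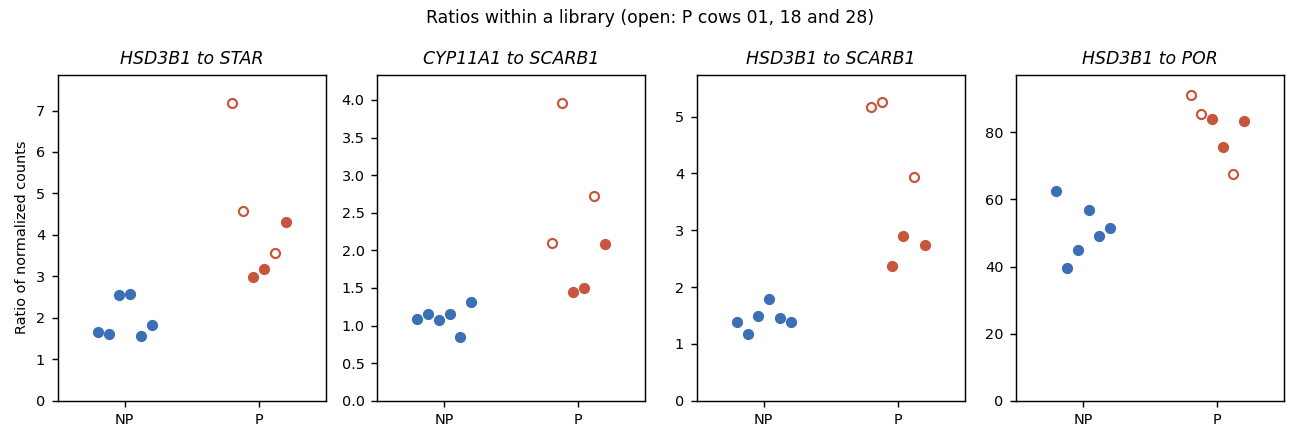
Within-library ratios of the 4 gene pairs whose P and NP values did not overlap, on linear axes from 0, 1 panel per pair. Each point is 1 cow, with P cows 01, 18 and 28 drawn open; the ratio of HSD3B1 to SCARB1 is 2.38 or more in every P cow and 1.78 or less in every NP cow.

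Some cows were high or low in many members at once. NP cow 32 was the highest NP cow for 7 of the 10 genes and NP cow 42 the lowest for 7, while P cow 18 was the lowest P cow for 5, P cow 19 the highest for 4 and P cow 27 the highest for 3. With the group means removed, STAR and SCARB1 followed each other over the 12 cows (Pearson r = 0.84 on log2 values), as did HSD3B1 and POR (0.83), and TSPO and STARD3 went opposite ways (-0.67). These are descriptions that share the library and its scaling. In STARD3 the 3 highest P cows were those with the fewest reads: cow 18 with 717.6 normalized counts, cow 28 with 609.1 and cow 01 with 553.8.

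**Figure D5:**
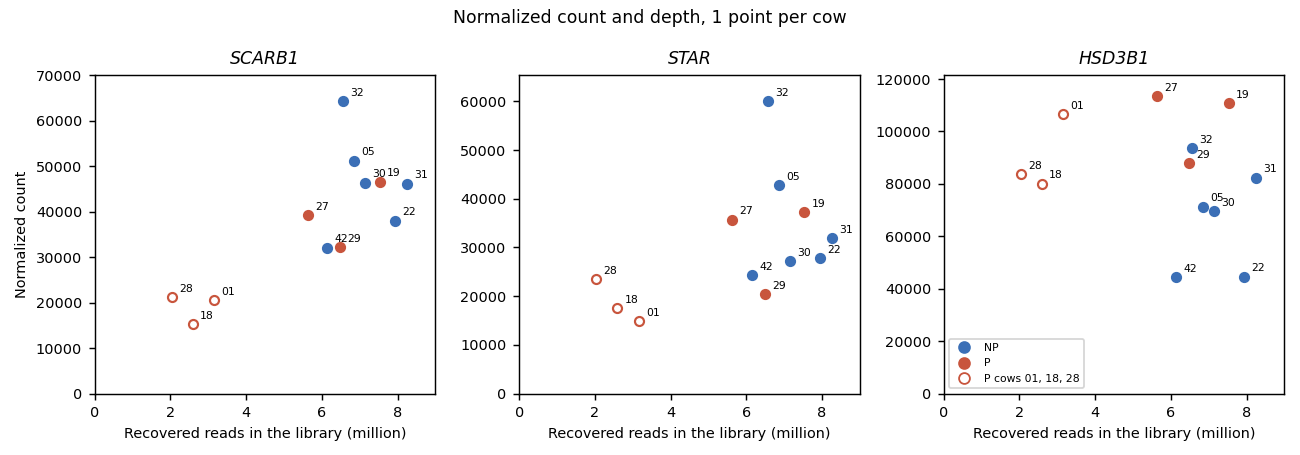
Normalized counts of SCARB1, STAR and HSD3B1 (y axes, from 0) against the recovered reads of each library (x axis). Each point is 1 cow, labelled by its number, with P cows 01, 18 and 28 drawn open at the fewest reads (2038858 to 3152328); these 3 are the lowest in SCARB1, and in HSD3B1 they lie among the other cows.

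Genes most like STAR, by Pearson r over the 12 cows after subtraction of each group's mean, were LIPE (0.96), UNC119 (0.94), TMEM229B (0.94), GRPEL1 (0.94) and TOMM5 (0.93). Those most like CYP11A1 were PSMB1 (0.92), P2RX4 (0.91), TOMM22 (0.87), MKNK1 (0.87) and PSENEN (0.86). Those most like HSD3B1 were ABRAXAS2 (0.92), NTMT1 (0.91), ASB6 (0.91), EIF2B2 (0.91) and HEXIM2 (0.90). Over the 9 cows left without P cows 01, 18 and 28 these values lay between 0.78 for TOMM22 and 0.96 for LIPE. The genes were picked as the highest of all genes tested over 12 cows that include these 9. High values over the 9 are therefore no separate check.

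The genes around the 10 members were read from 5 lists: delivery of cholesterol to mitochondria, its uptake, release and esterification, regulators of steroidogenic transcription, other steroid enzymes, and electron transfer and haem partners. Of 80 genes listed, 73 were in the table and 70 were tested. Among the 70, 1 was called higher in P (1.43%) and 20 lower (28.6%) with limma, beside 12% and 14.8% of all genes, and the median log2 fold change was -0.41. Without P cows 01, 18 and 28, 1 of 69 was higher (1.45%) and 9 lower (13%), beside 4.2% of all genes higher and 8.04% lower in the same fit.

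Of the 14 genes of cholesterol delivery tested, 3 were lower and none higher, beside 14.8% and 12% of all genes. The counts of this and the other single lists rest on few genes and were not tested against these shares. VDAC3 and VDAC1, channels of the outer mitochondrial membrane, were lower by log2 fold changes of -1.22 (adjusted p = 0.00156 in limma) and -0.82 (adjusted p = 0.00743), with neither showing overlap of the groups. MFN2, which tethers mitochondria, was at -0.61. VDAC3 was at -0.77 and called without P cows 01, 18 and 28 (adjusted p = 0.0209 in limma), while VDAC1 was at -0.74 (adjusted p = 0.0752) and MFN2 at -0.37 (adjusted p = 0.149).

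Of 10 genes of uptake, release and esterification tested, 4 were lower. SOAT1, which esterifies cholesterol for storage, averaged 196.8 ± 64.8 normalized counts in P and 560.6 ± 203.8 in NP (SD, n = 6 each), a log2 fold change of -1.50 (adjusted p = 0.00182 in limma), and was at -1.38 without the 3 P cows (adjusted p = 0.0178). OSBP, a sterol carrier, LIPA, the lysosomal lipase, and ABCA1, a cholesterol exporter, were lower at -0.74, -0.79 and -1.71. Without the 3 P cows they were at -0.54, -0.44 and -1.25 and not called (adjusted p = 0.0657, 0.234 and 0.231 in limma).

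Among the 14 regulators tested, NR5A2, an orphan nuclear receptor of steroidogenic tissue, rose in P, from 968.2 ± 333.5 in NP to 1772 ± 567.4 in P (log2 fold change 0.93, adjusted p = 0.0203 in limma; 1.12 without P cows 01, 18 and 28, adjusted p = 0.0586). GATA6, a transcription factor of steroidogenic cells, fell from 280.1 ± 89.85 to 96.95 ± 25.7, a log2 fold change of -1.48 with no overlap of the groups (adjusted p = 0.000961 in limma), and was at -1.39 without the 3 P cows (adjusted p = 0.0172). FOXL2, a factor of ovarian cells, was lower as well, with 108.6 ± 29.56 in P and 222.1 ± 77.43 in NP, and SP1 was at -0.60; without the 3 P cows these were at -0.87 and -0.40 and not called (adjusted p = 0.0637 and 0.216 in limma). NR5A1, the nuclear receptor that drives many steroidogenic promoters, was not called, at 0.50 with an adjusted p of 0.055 in limma.

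Among 18 other steroid enzymes tested, 5 were lower and none higher with limma, HSD11B2, CYP27A1, HSD17B12 and HSD17B7 having the smallest p and HSD11B1 being the other, named after its values were seen. With edgeR 3 were lower and 1 higher, and without P cows 01, 18 and 28 the count was 2 lower and 0 higher with limma. The median log2 fold change was -0.58 with limma, -0.34 with edgeR and 0.03 without those cows. CYP27A1, which hydroxylates the cholesterol side chain, was at -0.66, and at -0.97 without them (adjusted p = 0.0152 in limma). HSD17B12 and HSD17B7 were at -1.66 and -0.73, and at -0.82 and -0.35 without them, not called (adjusted p = 0.199 and 0.396 in limma). HSD11B2, which inactivates glucocorticoid, was lower at -3.24, with 24.85 ± 12.26 normalized counts in NP and 2.37 ± 2.66 in P (SD, n = 6 each), and at -1.99 without P cows 01, 18 and 28. Among 14 genes of electron transfer and haem, 5 were lower, of which 4 stayed lower without P cows 01, 18 and 28. NNT, which makes NADPH in mitochondria, was at -1.69 (adjusted p = 0.00134 in limma) and -1.34 without those cows. CYB5B, the mitochondrial relative of CYB5A, fell by 0.93 on the log2 scale (adjusted p = 0.00178 in limma; -0.72 without those cows), from 1067 ± 249.9 in NP to 555.4 ± 117.5 in P, with no overlap, while CYB5A was at 0.50. CPOX and CYB5R1 were at -2.48 and -0.71, and at -1.65 and -0.61 without those cows, and PGRMC1, named after its values were seen, at -0.70. Levels of HSD11B2 and CPOX in P were low, and with a pseudocount of 8 their log2 fold changes were -1.60 and -1.58.

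Genes of other cell types in the CL also moved between the groups, with no direction common to all. Of all genes tested, 12% were called higher in P and 14.8% lower. Of 12 endothelial genes tested, 2 were called lower in P, PECAM1 at -2.56 and CDH5 at -1.19, and 1 higher, EGFL7 at 1.12. Of the 8 pericyte and smooth muscle genes tested, MCAM, PDGFRB and CSPG4 were lower at -1.58, -0.62 and -0.72 and MYH11 higher at 0.92. Of the 8 fibroblast genes tested, LUM was lower at -1.55 and PDGFRA higher at 0.64. Of the 9 leukocyte genes tested, 2 were called higher, CD8A and CD3E of T cells at 1.12 and 0.71, and 0 lower. The median log2 fold change of the leukocyte genes was 0.02. CD14 and CD68 were at -0.51 and -0.68 and not called (adjusted p = 0.092 and 0.144 in limma). The calls held without P cows 01, 18 and 28 for PECAM1 (-1.91), CDH5 (-0.84), EGFL7 (0.65), MCAM (-0.91), LUM (-1.02) and CD8A (1.12). They did not hold for PDGFRB (-0.53), CSPG4 (-0.62), MYH11 (0.82), PDGFRA (0.54) and CD3E (0.68). The summed endothelial markers ranged from 7979 to 13551 in NP and from 6878 to 14622 in P, pericyte markers from 5887 to 14677 and 6206 to 15091, fibroblast markers from 33508 to 82324 and 31461 to 73851, and leukocyte markers from 531.1 to 1284 and 747.6 to 1299, with overlap in every case. No marker was at 0 in all cows. Of the 9 luteal genes tested outside the members, 2 were called lower and 0 higher, beside 14.8% and 12% of all genes. PTGFR, the receptor for the luteolytic prostaglandin, fell by 1.79 on the log2 scale (adjusted p = 0.00193 in limma), and was at -1.31 without P cows 01, 18 and 28. MGARP was at -1.02 (adjusted p = 0.0372 in limma), and at -0.84 and not called without those cows (adjusted p = 0.241 in limma). The part of cell composition in the values of the members was not tested. None of the 6 follicle markers was called with limma, and 2 of 6 were higher with edgeR; YWHAZ and PPIA, 2 of the 5 housekeeping genes, were lower at -1.27 and -0.87, and at -1.33 and -0.49 without P cows 01, 18 and 28, where PPIA was not called (adjusted p = 0.0671 in limma). GAPDH was at -0.14 (adjusted p = 0.543 in limma) and RPS26 at 0.22 (adjusted p = 0.288).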

How the data were processed

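Poly-A RNA of the CL was sequenced as single-end reads. Reads were trimmed (cutadapt), aligned to ARS-UCD1.2 (STAR 2.4.2a) and assigned to Ensembl genes (htseq-count) by the authors, and the signal values deposited are these counts over DESeq2 size factors. Whole reads were recovered as multiples of 1 step per library (at least 99.99% whole within 0.0051). The authors' columns of fold changes and p-values were not used, and 0 other per-sample columns were left out.

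For 11907 genes reaching a value of 30 in any cow, limma 3.58.1 with a variance trend (R 4.3.3) was run on log2(value + 1), two-sided, with Benjamini-Hochberg adjustment. Calls asked for 0.58 or more on the log2 scale and adjusted p below 0.05; intervals are 95% moderated intervals.

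Named were all members, up to 4 genes of smallest p in each list, the 5 genes most like STAR, CYP11A1 and HSD3B1, GAPDH and RPS26. NR5A1, HSD11B1 and PGRMC1 were added after their values were seen. The members and lists were chosen with earlier results of these data known. Alternatives were edgeR 4.0.16 (TMM, upper quartile), DESeq2 1.42.0, limma-voom, scaling by library total, filters, pseudocounts, fold minimum, 1 surrogate variable (sva 3.50.0), library total as a covariate, thinning, and leaving out cows. Thinned libraries were scaled by library total in place of the size factors. No promoter or protein sequence was used here.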

Additional observations from a re-analysis of the deposited data

Results flagged for a closer look

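Within-group gaps were examined for the 10 members in both groups, 20 groups of 6 cows, and chance gives such a gap in about 1 in 20 groups. In FDXR, P cow 19 at 5166.25 normalized counts stood above the other P cows, with a gap of 0.663 of the group's range, past Dixon's critical value for 6 cows. NP cow 32 at 5760.34 stood above the other NP cows in FDXR, with a gap of 0.634. NP cow 32 at 490.08 also stood above the other NP cows in STARD3, with a gap of 0.677.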

How the results depend on the processing

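No member was called with limma and all cows, so no call could be lost or reversed. Of 260 values (10 members under 26 alternatives), 249 stayed without a call and 11 gained one. The sign of TSPO turned from -0.36 to 0.01 with the library total as a covariate. That of FDXR turned in several alternatives, such as from 0.01 to -0.12 without P cow 19. SCARB1 was called lower in 8 alternatives, so that the count of members called lower was 1 in place of 0 with edgeR upper quartile factors (-0.72, adjusted p = 0.0411), DESeq2 (-0.66, adjusted p = 0.0264), limma-voom (-0.79, adjusted p = 0.034), library total scaling (-0.77, adjusted p = 0.0344) and thinning (-0.76, adjusted p = 0.042). It was also called without P cow 19 (-0.90), P cow 27 (-0.85) or NP cow 42 (-0.84), and with edgeR and TMM it was not (-0.68, adjusted p = 0.0563). Leaving out each cow in turn gave 0 to 1 members called higher and 0 to 1 called lower, the higher one being CYB5A without NP cow 42; without the fold minimum 2 were called higher. SCARB1 and STAR were negative, and HSD3B1, STARD3 and CYB5A positive, in all 26. The adjusted p of CYB5A ranged from 0.0187 to 0.0737 when each cow was left out, and with 1 surrogate variable STARD3 was at 0.34 (adjusted p = 0.0512). Over all genes, 510 were called (182 higher, 328 lower) with the library total as a covariate and 1410 (484 higher, 926 lower) without P cows 01, 18 and 28, and leaving out each cow gave 2493 to 3562. Over all 12 gene lists, those of other cell types and housekeeping genes included, 3 of 122 tested genes were higher and 15 lower without those 3 cows, in place of 6 and 30 of 124, beside 4.2% and 8.04% of all genes in place of 12% and 14.8%. The causes were not tested. No paired analysis was possible because the groups share no cow numbers. The fewest reads behind a member value were 99 for TSPO and 233 for STARD3. Depth and group cannot be fully told apart since the 3 libraries with the fewest reads assigned to genes are P cows.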
